A study of Homo sapiens with 2 samples.

Results

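The miR-30 family was measured in CL1-5 cells, an invasive human lung adenocarcinoma line, with the 7 assays of a microRNA (miRNA) PCR card whose names begin with miR-30 and a letter from a to e. These were miR-30a-5p, miR-30b, miR-30c, miR-30d and miR-30e-5p for the 5p arms of the hairpin precursors, and miR-30a-3p and miR-30e-3p for the 3p arms, 7 of 365 miRNA assays on the card. The names miR-30b, miR-30c and miR-30d state no arm and were taken as the 5p arm, for which these older names stood. There was 1 RNA sample of CL1-5 cells that overexpress ANGPTL1, a secreted angiopoietin-like protein, here called ANGPTL1 cells, and 1 of CL1-5 cells with the vector pcDNA3.1, here called control cells. Both had been kept in G418 for 4 weeks to select stable carriers, so the vector and the antibiotic are common to both samples. Whether each line was a pool or a clone, and how strongly ANGPTL1 was expressed, is not given in the sources used here, and ANGPTL1 itself was not on the card. With 1 sample in each group no difference has a replicate error or a test, and every comparison is between these 2 RNA samples.

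A miRNA hairpin is cut by DROSHA and DICER1 into a duplex whose strands are the 5p and the 3p arm, and one of them is usually kept in Argonaute in larger amount. Bases 2 to 8 of the mature strand, the seed, pair with target mRNAs, so members with the same seed are predicted to share many targets. The miR-30 family is known for repressing SNAI1, a transcription factor of the epithelial-mesenchymal transition, and also ITGB3, CCN2 and the autophagy gene BECN1. It is abundant in lung and kidney epithelium and is described as low in several carcinomas.

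The RefSeq table used here (GRCh38.p14) gave mature sequences for 5 of the 7 assays, and none for miR-30b and miR-30d. The sequences are shown because those of the same arm share a seed and differ elsewhere. Sequences run 5′ to 3′ and capitals mark the seed:
miR-30a-5p: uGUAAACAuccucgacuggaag
miR-30e-5p: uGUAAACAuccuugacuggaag
miR-30c: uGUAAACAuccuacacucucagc
miR-30a-3p: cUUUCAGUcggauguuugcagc
miR-30e-3p: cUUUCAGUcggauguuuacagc
The sequences of the 5p arms had the seed GUAAACA and those of the 3p arms the seed UUUCAGU, so the arms of a hairpin carry different seeds. Outside the family, 0 mature miRNAs of that table had either seed. Counted from 1 at the 5′ end, miR-30a-5p and miR-30e-5p differed at 1 of 22 positions (C13U, miR-30a-5p first) and shared the last 9 bases. The 3p arms of the same hairpins also differed at 1 of 22 positions (G18A, miR-30a-3p first). miR-30c differed from each of the other 5p sequences at 5 of 22 positions, 0 of them in the seed.

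The family comes from 6 hairpins in 3 pairs of neighbours. MIR30A (chr6:71403551-71403621, minus strand) lies 26.5 kb from MIR30C2 (chr6:71376960-71377031, minus strand). No other gene of the RefSeq table used here overlaps either, and a host gene missing from that table would not be seen. MIR30E (chr1:40754355-40754446, plus strand) lies 2.84 kb from MIR30C1 (chr1:40757284-40757372, plus strand), both inside NFYC, the gene of a nuclear transcription factor Y subunit, which spans 40691704 to 40771603. MIR30B and MIR30D lie 4.27 kb apart on another chromosome, inside the span of the zinc finger gene ZFAT. Within 100 kb of each hairpin its partner was the only other miRNA gene. The mature miR-30c is the same from MIR30C1 and MIR30C2, so its assay reads the sum of 2 loci. The hairpins MIR30A and MIR30E are shown because both of their arms were on the card, with the mature arms in capitals:
MIR30A: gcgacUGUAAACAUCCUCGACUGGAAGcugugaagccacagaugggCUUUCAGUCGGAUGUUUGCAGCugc
MIR30E: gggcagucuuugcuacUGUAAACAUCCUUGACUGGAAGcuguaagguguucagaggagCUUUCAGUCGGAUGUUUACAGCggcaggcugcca

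The measurement was the threshold cycle (Ct), at which fluorescence crosses a set level, over 40 cycles. A miRNA counted as detected below cycle 35. The delta Ct is the Ct minus that of RNU48, a small nucleolar RNA used as endogenous control, in the same sample. RNU48 stood at cycle 21.21 in ANGPTL1 cells and 20.79 in control cells. The card had 158 miRNAs detected in ANGPTL1 cells and 157 in control cells, 145 of them in both. Of the epithelial markers miR-200a, miR-200b, miR-200c, miR-141, miR-203 and miR-205, miR-200c and miR-203 were detected in both samples, and the assays of the other 4 in neither. Relative to RNU48, as log2 ratios of ANGPTL1 over control cells, miR-200c was at 1.82 (3.53-fold) and miR-203 at -0.30. Of 19 assays for markers of blood, muscle, nerve, liver, endothelial and fibroblast cells, 8 were detected in at least 1 sample. Of the 6 detected in both, 5 had a log2 ratio below 0. They were the assays of miR-9 (-0.75 and -0.63), one of miR-199a (-0.70), miR-133b (-0.55) and one of miR-126 (-0.41). The other assay of miR-126 was the highest, at 0.33. The miR-199a assay stood at cycle 34.95 in ANGPTL1 cells, close to the limit. Of the 2 not detected in both, miR-137 passed the detection limit in only the ANGPTL1 sample and miR-142-3p in only the control sample. The part of these markers in the results was not tested.

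The family was well expressed through miR-30c, miR-30b, miR-30a-5p and miR-30d, and miR-30e-5p was at the edge of detection. miR-30c, known as a repressor of the matrix gene CCN2, had the earliest cycle of the family, 25.25 in ANGPTL1 cells and 24.86 in control cells. It took place 18 among the 365 miRNA assays in either sample. miR-30b, which with miR-30d is known to repress the glycosyltransferase gene GALNT7 in melanoma, stood at cycle 25.40 in ANGPTL1 cells and 25.02 in control cells, 0.15 and 0.16 cycles later than miR-30c. miR-30a-5p, described as a repressor of SNAI1 in lung cancer cells, stood at cycle 25.74 in ANGPTL1 cells and 26.44 in control cells. It held place 26 among the assays in ANGPTL1 cells, against place 43 in control cells. miR-30d stood at cycle 26.94 in ANGPTL1 cells and 27.13 in control cells, places 41 and 50.

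The order of levels within the family, c, b, a-5p, d, e-3p, a-3p and e-5p, was the same in both samples. Levels set between assays also carry the efficiency of each assay, which was not measured. As a share of RNU48, with each cycle taken to double the template, miR-30c was at 6.08% in ANGPTL1 cells and 5.95% in control cells, and miR-30b at 5.48% and 5.33%. miR-30a-5p was at 4.33% in ANGPTL1 cells and 1.99% in control cells, so the gap below miR-30b was 0.34 cycles in ANGPTL1 cells and 1.42 in control cells. miR-30d followed at 1.88% in ANGPTL1 cells and 1.23% in control cells. No spread between wells is known, so whether the neighbours c and b differ in level could not be judged.

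**Figure D1:**
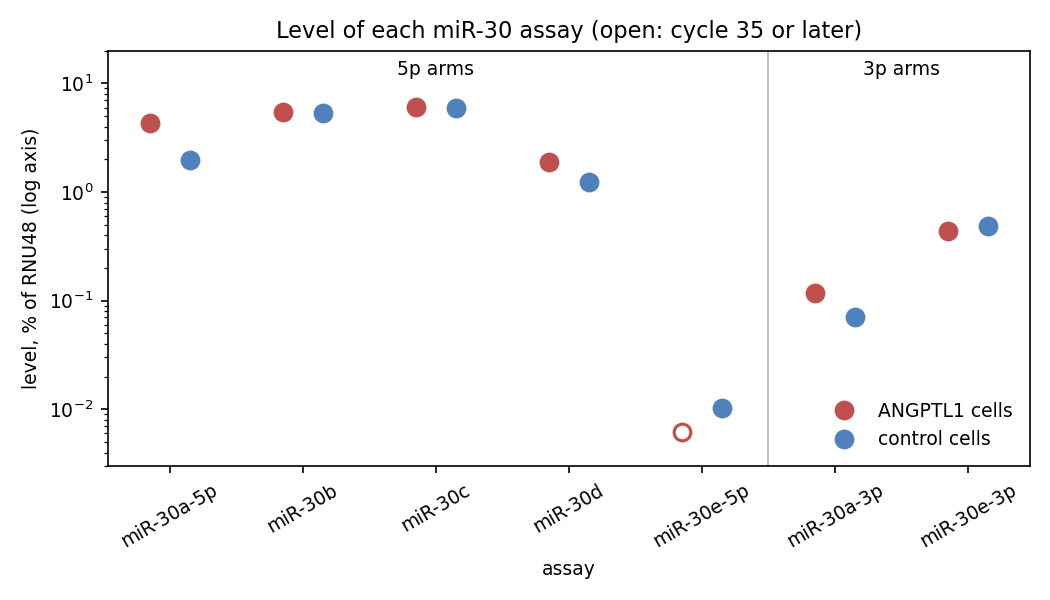
Level of each miR-30 assay as a percentage of RNU48 on a log axis, ANGPTL1 cells left (red) and control cells right (blue) for each assay, 1 sample each. The largest gap between samples among filled points is that of miR-30a-5p, at 4.33% in ANGPTL1 cells and 1.99% in control cells, and miR-30e-5p is far below the other 5p arms.

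The comparison of ANGPTL1 cells with control cells asked how far each member differed relative to RNU48. The log2 ratio was taken as delta Ct in control cells minus delta Ct in ANGPTL1 cells, so a positive value means more miRNA in ANGPTL1 cells. A total of 6 members were detected in both samples. Of these, miR-30a-5p was at least 2-fold higher in ANGPTL1 cells and 0 were at least 2-fold lower, while 7.59% of the 145 detected miRNAs were at least 2-fold higher and 4.83% at least 2-fold lower. The median log2 ratio of the 6 was 0.33, that of all 145 was -0.01, and 5 of the 6 lay above 0, as did 72 of 145 (49.7%). With detection below cycle 38, where miR-30e-5p enters as the last member, the median was 0.04.

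miR-30a-5p had a delta Ct of 4.53 in ANGPTL1 cells and 5.65 in control cells, a log2 ratio of 1.12 or 2.17-fold. It ranked eighth from the top among 145. Log2 ratios of the 37 miRNAs with a mean cycle from 25 to 28 ran from -0.87 to 1.12. Their robust SD over miRNAs was 0.34. Among these miR-30a-5p had the highest value, and miR-130a, near it in delta Ct, had a log2 ratio of 1.11. That band was chosen after the values were seen, and its spread holds real differences as well as noise. miR-30a-3p, the other strand of the same hairpin, had a delta Ct of 9.73 in ANGPTL1 cells and 10.47 in control cells, a log2 ratio of 0.74 or 1.67-fold. miR-30d had a delta Ct of 5.73 in ANGPTL1 cells and 6.34 in control cells, a log2 ratio of 0.61 or 1.53-fold, the third highest in the same band. These were the members past 1.5-fold, 3 of 6, a size that 16.6% of the 145 reached on the higher side.

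The remaining members had log2 ratios near 0 or below it. miR-30b had a delta Ct of 4.19 in ANGPTL1 cells and 4.23 in control cells, a log2 ratio of 0.04. miR-30c had 4.04 in ANGPTL1 cells and 4.07 in control cells, a log2 ratio of 0.03. miR-30e-3p had 7.82 in ANGPTL1 cells and 7.68 in control cells, a log2 ratio of -0.14. miR-30e-5p was detected in control cells alone, at cycle 34.04, and stood at 35.20 in ANGPTL1 cells, just past the limit. With the later cycle set to 35 and the cycle of 34.04 taken as exact, its level in ANGPTL1 cells was lower by at least 1.44-fold. For this assay a ratio of 0.603, which rests on the late cycle, stands in the authors' deposited table.

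The directions of the middle members depend on the reference. RNU48 came 0.42 cycles later in ANGPTL1 cells, so without normalization every log2 ratio is lower by that amount. miR-30a-5p was then at 0.70, under 2-fold (0.65 with the median Ct of the 145 miRNAs in each sample as reference), miR-30a-3p at 0.32 and miR-30d at 0.19. miR-30b and miR-30c changed sign, to -0.38 and -0.39, and miR-30e-3p stood at -0.56. The median over the 6 members was then -0.10 and that over the 145 miRNAs -0.43. With the mean Ct of the 145 miRNAs as reference, added after the data were seen, miR-30b was at 0.03 and miR-30c at 0.02. The differences between members given below do not depend on the reference.

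**Figure D2:**
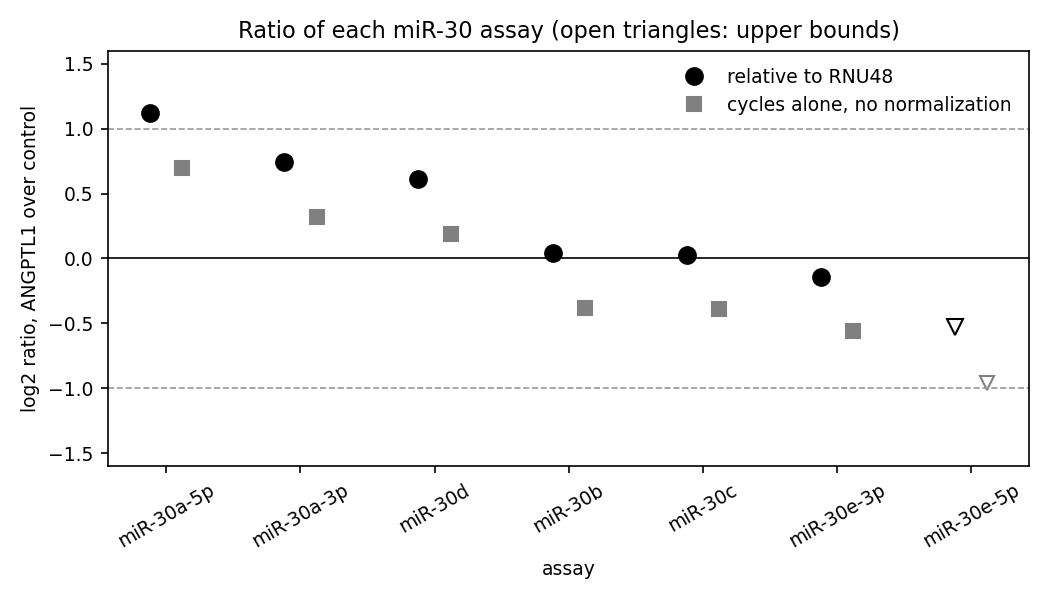
Log2 ratio of ANGPTL1 over control cells for each miR-30 assay, relative to RNU48 (black) and from the cycles alone (grey), with dashed lines at 2-fold. The hairpin a assays and miR-30d are above 0 on both scales, miR-30b and miR-30c are above 0 only relative to RNU48, and the open triangles for miR-30e-5p are upper bounds with its later cycle set to 35.

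Both arms of hairpin a were above 0 in log2 ratio and both arms of hairpin e below 0, relative to RNU48. The log2 ratio of miR-30a-5p exceeded that of miR-30a-3p by 0.38. For hairpin e the 5p value, as a bound, was lower than the 3p value by at least 0.39. Setting like arms against each other, miR-30e-3p was 0.88 below miR-30a-3p in log2 ratio, and miR-30e-5p at least 1.65 below miR-30a-5p. Hairpins a and e lay apart in the same direction in either arm, although the mature strands differ by 1 base. The 5p side rests on miR-30e-5p, at cycle 35.20 in ANGPTL1 cells and 34.04 in control cells, at the edge of detection. Its bounds take cycle 34.04 as exact, and the error of that reading is not known. Whether assays of sequences 1 base apart read each other was not tested.

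Which arm had the earlier cycle differed between the hairpins. These gaps also carry the efficiency of each assay, which was not measured. In hairpin a the 5p arm led: miR-30a-3p stood at cycle 30.94 in ANGPTL1 cells and 31.26 in control cells, 5.20 and 4.82 cycles after miR-30a-5p, or 36.8-fold and 28.2-fold less. In hairpin e the 3p arm led: miR-30e-3p stood at cycle 29.03 in ANGPTL1 cells and 28.47 in control cells. miR-30e-5p came 5.57 cycles (47.5-fold) later in control cells and at least 5.97 cycles (62.7-fold) later in ANGPTL1 cells. All folds here take each cycle to double the template, and miR-30e-5p was at the edge of detection. Between the 5p arms, miR-30e-5p came 7.60 cycles after miR-30a-5p in control cells and at least 9.26 cycles after it in ANGPTL1 cells. Between the 3p arms the order was the opposite, with miR-30e-3p 1.91 cycles earlier than miR-30a-3p in ANGPTL1 cells and 2.79 cycles earlier in control cells.

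The card had 11 hairpins with assays named -5p and -3p, leaving aside names that stand on 2 assay numbers with no arm stated, and for 3 of the 11 both arms were detected in both samples: miR-30a, miR-17 and miR-324. miR-17, of the growth-linked miR-17 to miR-92 cluster, had its 3p arm 6.87 cycles after the 5p arm in ANGPTL1 cells and 6.66 in control cells, with log2 ratios of -0.20 (3p) and 0.01 (5p). miR-324 had its 3p arm 1.17 cycles before the 5p arm in ANGPTL1 cells and 0.97 before it in control cells, with log2 ratios of 0.01 (3p) and -0.20 (5p). The arms thus differed in log2 ratio, as 5p minus 3p, by 0.38 for miR-30a, 0.21 for miR-17 and -0.21 for miR-324, and these sizes cannot be ordered beyond an error that is not known.

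**Figure D3:**
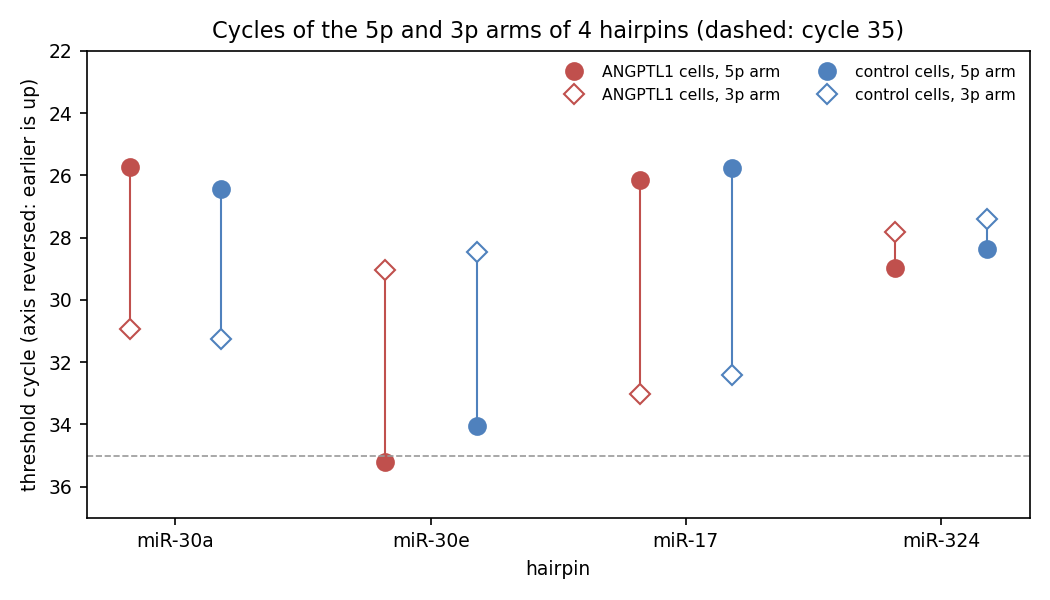
Threshold cycles of the 5p arm (filled circles) and 3p arm (open diamonds) of hairpins miR-30a, miR-30e, miR-17 and miR-324, ANGPTL1 cells left (red) and control cells right (blue), with the axis reversed and a dashed line at cycle 35. The 5p arm is earlier in miR-30a and miR-17 and the 3p arm in miR-30e and miR-324, in both samples.

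The log2 ratios of neighbouring hairpins lay apart in these samples, by gaps whose error is not known. Within the single hairpin a the arms lay 0.38 apart. In the pair of a and c, miR-30a-5p was 1.09 above miR-30c, and the gap in level between them was 0.49 cycles in ANGPTL1 cells and 1.58 in control cells. In the pair of b and d, miR-30d was 0.57 above miR-30b, with gaps in level of 1.54 cycles in ANGPTL1 cells and 2.11 in control cells, miR-30b being earlier in both. In the pair of e and c, miR-30e-3p was 0.17 below miR-30c, and miR-30e-5p at least 0.56 below it. Since miR-30c sums MIR30C1 and MIR30C2, its 0.03 cannot be divided between the locus of a and the locus of e.

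The 5p arms with a sequence given above share a seed, while the seeds of miR-30b and miR-30d were not read here. The levels of all 5p arms were also added, taking every assay as equally efficient. The sum was 17.8% of RNU48 in ANGPTL1 cells and 14.5% in control cells, 1.22-fold higher in ANGPTL1 cells. Without normalization the ratio of the sums was 0.915, so its direction depends on whether the cycles are set against RNU48. miR-30a-5p made up 24.3% of the sum in ANGPTL1 cells and 13.7% in control cells, and without it the ratio of the sums was 1.07. miR-30c made up 34.2% in ANGPTL1 cells and 41.0% in control cells, miR-30b 30.8% and 36.7%, and miR-30d 10.6% and 8.50%. miR-30e-5p made up 0.0348% in ANGPTL1 cells, from a cycle past the limit, and 0.0707% in control cells. The shares do not depend on the reference.

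**Figure D4:**
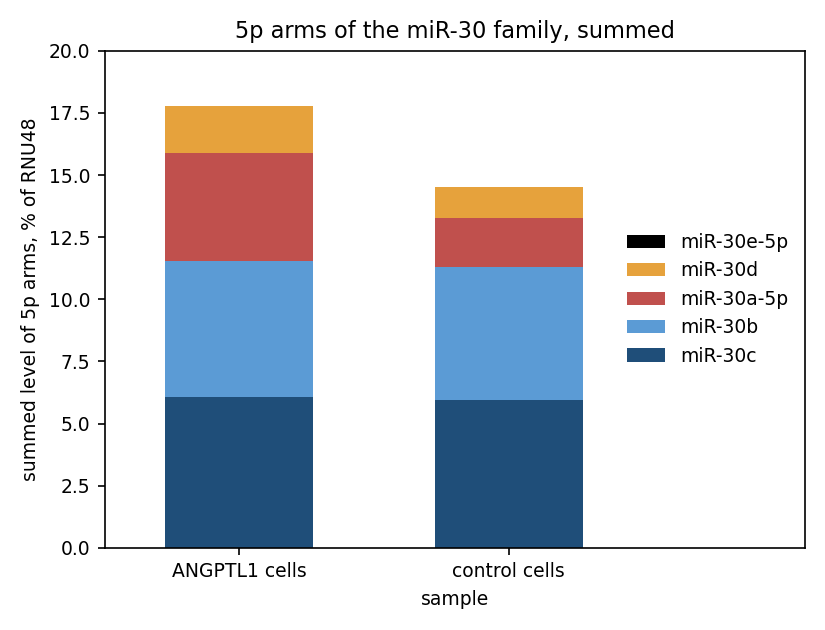
Summed level of the miR-30 5p arms as a percentage of RNU48, with each member as a coloured segment, in ANGPTL1 cells (left) and control cells (right). The sums are 17.8% and 14.5%, and miR-30a-5p makes up 24.3% and 13.7% of them; the share of miR-30e-5p is too small to be seen.

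Other seed families were set beside the miR-30 family for the spread among members, with no test of any difference, and a range also grows with the number of members. The 4 miR-30 5p members detected in both samples ran from 0.03 to 1.12 in log2 ratio, a range of 1.09. With miR-30e-5p, at most -0.53, the range was at least 1.65. let-7 with miR-98, 8 members, ran from -0.09 to 1.88, a range of 1.97. The family with the seed of miR-17-5p, 5 members, ran from -1.20 to 0.28, a range of 1.48, and miR-15 with miR-16 and miR-195, 4 members, from -0.79 to 0.32, a range of 1.11. The medians were 0.33 for the 4 miR-30 5p members, 0.47 for let-7, 0.01 for the miR-17 seed and -0.14 for miR-15.

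**Figure D5:**
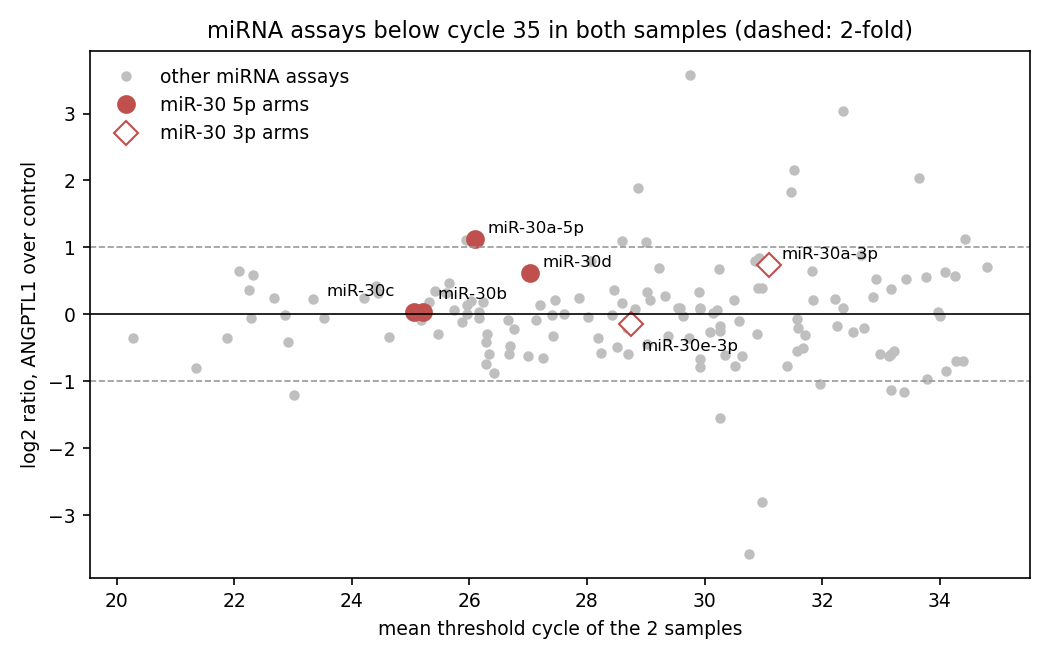
Log2 ratio of ANGPTL1 over control cells, relative to RNU48, against the mean cycle of the 2 samples for the 145 miRNAs below cycle 35 in both, with the miR-30 5p arms (filled red circles) and 3p arms (open red diamonds) named and dashed lines at 2-fold. miR-30a-5p, at 1.12, is the one miR-30 point past the upper line, and miR-30e-3p, at -0.14, the one below 0.

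Other miRNAs had delta Ct values near those of the members, by Euclidean distance over the 2 samples, which measures level more than difference. The nearest to miR-30a-5p was miR-130a, at 0.21 cycles, with a log2 ratio of 1.11, followed by miR-320 at 0.66 cycles and 0.20. The nearest to miR-30a-3p were miR-146b (0.25 cycles, log2 ratio 0.84) and miR-32 (0.29 cycles, log2 ratio 0.40). miR-30b had miR-191 (0.10 cycles, log2 ratio -0.09) and miR-27a (0.17 cycles, log2 ratio 0.18), and miR-30c had miR-191 (0.19 cycles) and miR-30b (0.22 cycles). miR-30d had miR-365 (0.41 cycles, log2 ratio 0.14) and let-7g (0.51 cycles, log2 ratio -0.09). miR-30e-3p had miR-324-5p (0.11 cycles, log2 ratio -0.20) and miR-345 (0.18 cycles, log2 ratio 0.08).

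Of 12 other miRNAs described as repressors of SNAI1 or its relative SNAI2, 11 were on the card by name, and these also had no common direction. In both samples 4 were detected, their median log2 ratio being 0.46, and 2 of these, miR-34c at 2.04 and miR-22 at 1.09, were past 2-fold on the higher side and 0 on the lower, beside 7.59% and 4.83% of the 145 detected miRNAs. miR-34a, a direct p53 target, was at -0.17 and miR-203, known from epidermal differentiation, at -0.30. The value of miR-34c rests on late cycles, 32.85 in ANGPTL1 cells and 34.46 in control cells, the latter close to the limit. miR-34b, miR-137 and miR-218 were detected in ANGPTL1 cells alone, at cycles 33.96, 33.11 and 34.85, and miR-33 in control cells alone, at cycle 33.79, while over the card 13 miRNAs passed the limit in only the ANGPTL1 sample and 12 in only the control sample. With the later cycle set to 35, and relative to RNU48, miR-34b was higher in ANGPTL1 cells by at least 2.75-fold. For miR-137 the bound was at least 4.99-fold and for miR-218 at least 1.48-fold, while miR-33 was lower there by at least 1.73-fold. The bound of miR-218 rests mostly on RNU48, which came 0.42 cycles later in ANGPTL1 cells. The other 3 were detected in neither sample.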

How the data were processed

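Per the labels' protocols, 500 ng of total RNA of each sample was reverse transcribed in multiplex and amplified over 40 cycles on a TaqMan card, the human microRNA panel in version 1.0. Per the file headers, the deposited tables held the average Ct, the delta Ct against RNU48, which is a log2 value with its sign turned, and the authors' fold change of ANGPTL1 over control, a ratio that equals 2 to the power of the difference in delta Ct. The number of wells averaged, the threshold and the software: not given in the sources used here. The deposited delta Ct differed from the cycles by at most 0.01. The columns of relative levels in the delta Ct table were not used. Log2 ratios came from the deposited delta Ct, with Python 3.11.15, pandas 2.3.3 and numpy 2.4.6, and the functions were tested on simulated data. A cycle of 35 or later counted as not detected and was set to 35 for a bound, which understates a difference. A bound takes the earlier cycle as exact and holds no allowance for its error. Named were all 7 members, the 2 nearest miRNAs to each detected member, the SNAI1 and SNAI2 list, hairpins with both arms detected, and RNU48. Members and lists were chosen with earlier results of these data known. The depth of a PCR card is its cycle, and values past cycle 32 rest on little template.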

Additional observations from a re-analysis of the deposited data

How the results depend on the processing

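With 1 sample per group, no replicate could be left out, and no alternative gives an error. No paired analysis was possible because there is 1 sample of each kind. Several settings left the count past 2-fold at 1 higher and 0 lower. They were RNU48 recomputed from the cycles, the authors' deposited table (equal by construction), amplification by 1.9 per cycle and detection below cycle 32. No log2 ratio that they gave moved by over 0.1. Below cycle 32 miR-30e-5p counted as detected in neither sample, so its log2 ratio, its arm difference and its difference from miR-30c were lost. Without normalization the count higher was 0, the median log2 ratio -0.10, and the members were at 0.70 (miR-30a-5p), 0.32 (miR-30a-3p), 0.19 (miR-30d), -0.38 (miR-30b), -0.39 (miR-30c), -0.56 (miR-30e-3p) and at most -0.96 (miR-30e-5p), with the ratio of 5p sums at 0.915. With each sample's median Ct over the 145 miRNAs as reference, 29.20 in ANGPTL1 cells and 29.25 in control cells, the count was 0, the median -0.15, and the members were at 0.65, 0.27, 0.14, -0.43, -0.44, -0.61 and at most -1.01 in the same order. As references added after the data were seen, the mean Ct (29.1 in ANGPTL1 cells, 28.7 in control cells) gave a median of 0.31 and the median of the differences in Ct 0.34, each with 1 member past 2-fold.

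With detection below cycle 38, or with cycle 40 as the only limit, miR-30e-5p entered at -0.73, the median was 0.04, the arm difference of hairpin e -0.59 and miR-30e-5p minus miR-30c -0.76. A 1.5-fold threshold gave 3 members higher and a 4-fold threshold 0. The median was 0.04 with miR-30a-5p, miR-30a-3p or miR-30d left out and 0.61 with miR-30b, miR-30c or miR-30e-3p left out, so it rests on few members. The ratio of 5p sums was 1.07 without miR-30a-5p. With amplification by 1.9, added after the data were seen for levels, the arms of hairpin a were 28.2-fold apart in ANGPTL1 cells and 22.1-fold in control cells, and those of hairpin e at least 46.1-fold and 35.7-fold.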

Other observations

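Beyond the hairpins described above, the 3p arm was the detected one in 3 further hairpins of the card, each in at least 1 sample. miR-380-3p, of the imprinted 14q32 cluster, stood at cycle 33.70 in ANGPTL1 cells and 33.84 in control cells, with its 5p arm at cycle 40 in both. miR-485-3p, of the same cluster, stood at 33.97 in ANGPTL1 cells and 39.71 in control cells, again with the 5p arm at 40. miR-142-3p, abundant in blood cells, stood at 37.19 in ANGPTL1 cells and 34.51 in control cells, and its 5p arm at 36.30 and 38.73. The remaining 4 hairpins with assays named -5p and -3p, miR-299, miR-369, miR-512 and miR-515, had neither arm detected.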
